A study of Rattus norvegicus with 17 samples.

Results

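The peaks described are the places called for the transcription factor Olig2 by chromatin immunoprecipitation with sequencing (ChIP-seq) in immature (iOL) and mature (mOL) rat oligodendrocytes. They were taken from the whole iOL list, which held 25787 peaks, and the whole mOL list, which held 2759, together 28546 of the 189320 peaks in the 17 lists of the series. An iOL peak that shared at least 1 bp with an mOL peak is called kept, and one that did not is called lost, a word that says only that no mOL peak was called there. Both libraries came from primary cells of wild-type Sprague-Dawley rats, isolated from the cortex of pups at postnatal day 2, and both carried the label of T3 treatment. The differentiation medium held T3, a thyroid hormone, at 15 nM and ciliary neurotrophic factor at 10 ng/ml. The lists used beside them came from the same 2 stages and from oligodendrocyte precursor cells (OPC), labelled as treated with mitogens. The growth medium, recorded for the iOL and mOL libraries as well as for OPC, held PDGF-AA at 10 ng/ml and bFGF at 20 ng/ml. Those lists covered Brg1, RNA polymerase II (RNAPII) and 3 histone marks. No source used here gives the days in culture of either stage or says whether cultures were pooled, and marker genes of the stages were not measured in these libraries.

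Olig2 is a basic helix-loop-helix factor that binds short E-box sequences in DNA and is required for the making of oligodendrocyte precursors and for the early steps of their differentiation. Brg1 is the ATPase that drives the BAF complex, which moves nucleosomes and opens chromatin at enhancers. Of the histone marks, H3K27Ac is found where enhancers and promoters are active, H3K4me3 marks promoters, and H3K9me3 is typical of silenced regions.

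There was 1 library for each target and stage, so no difference has a replicate check and no test was made. The files give the positions of the peaks in build rn4 without read numbers, and fewer occupied sites in mOL cannot be told apart from a less sensitive mOL library. Percentages are followed by exact Clopper-Pearson 95% intervals, which count each peak as independent and hold no error but that of counting. Peaks of all 17 lists were placed by position, and genes near them are not named because no annotation of this build was used here.

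The first question was how the iOL and mOL sites lay on each other. The mOL peaks were a small set nested in the iOL set: 2559 of the 2759 mOL peaks met an iOL peak, and they covered 2571 iOL peaks. The share of iOL peaks kept was thus 9.97%, the value against which every kept share below is read. Where the lists met, they met closely. The centres of the 2572 overlapping pairs lay a median of 67 bp apart, and 95% of the pairs lay within 255 bp. The median pair had 100% of its shorter peak inside the longer, and only 13 mOL peaks spanned 2 or more iOL peaks. The mOL peak was the narrower of the pair in 65.5% of pairs, with medians of 765 bp in mOL and 864 bp in iOL. Over the whole lists the order was the other way, with medians of 764 bp in mOL and 720 bp in iOL. With every Olig2 peak reduced to its middle 200 bp, the kept share was 9.11% and the share of mOL peaks met by iOL was 85.1%.

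Kept peaks were more often than lost ones Olig2 sites already in OPC. An OPC Olig2 peak lay at 2431 of the 2571 kept peaks (94.6%, 93.6 to 95.4) and at 13394 of the 23216 lost peaks (57.7%, 57.1 to 58.3), where 61.4% of all iOL peaks had one. Read the other way, 15.4% (14.8 to 15.9) of iOL peaks with OPC Olig2 were kept, and 1.41% (1.18 to 1.66) of those without it. The sites first called in iOL were thus nearly all absent from the mOL list. Only 140 of the 2759 mOL peaks were called in iOL and mOL and not in OPC, whereas 2419 were called at all 3 stages. The OPC Olig2 list has wider peaks than the iOL list, with a median of 1312 bp against 720 bp, and so reaches more iOL peaks than a list of narrow peaks would. The difference of 36.9 percentage points was 36.8 with factor peaks reduced to their middle 200 bp. It was 21.9 in the first 50% of rows of the deposited iOL list and 10.6 with lost peaks reweighted to the rows of kept ones. Over the whole list it was larger than the differences for iOL and mOL Brg1 (30.2 and 27.6 points). It was smaller than theirs in the first 50% of rows (28.3 and 25.6) and after reweighting by row (23.9 and 23.8). The first 2579 rows held 1282 of the kept peaks, and OPC Olig2 lay at 97.2% of the lost peaks there. That left little room for a difference of shares. In those rows 50.4% of 2542 peaks with OPC Olig2 and 1 of 37 without it were kept. With Brg1 of iOL or mOL 68.0% were kept, and without it 36.9%. The smaller differences thus do not rank OPC Olig2 below Brg1.

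**Figure D1:**
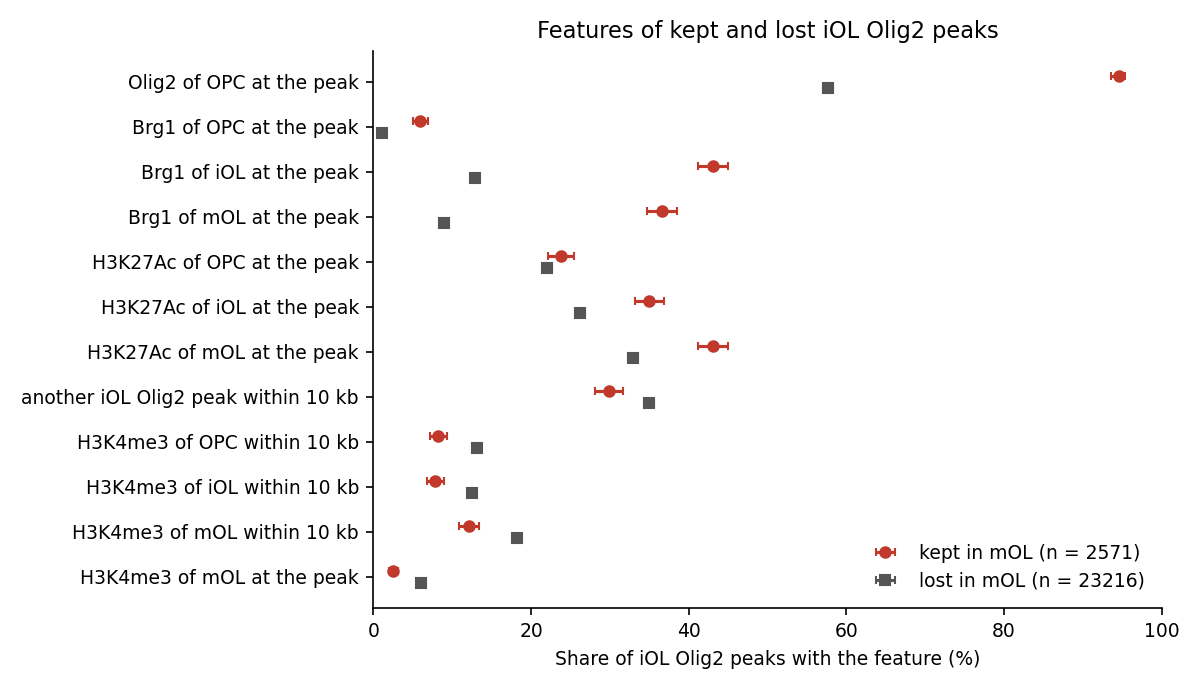
Share of kept (red circles, n = 2571) and lost (grey squares, n = 23216) iOL Olig2 peaks, in percent on the horizontal axis, that held each feature on the vertical axis, with exact 95% intervals over peaks. OPC Olig2 stands at 94.6% against 57.7%, and iOL Brg1 at 43.1% against 12.9%, while the H3K4me3 and neighbour rows lie lower in kept than in lost peaks.

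Kept peaks also held Brg1 more often than lost ones, with the Brg1 list of each stage. Brg1 of OPC, a list of 452 peaks, lay at 153 kept peaks (5.95%, 5.07 to 6.94) and at 260 lost peaks (1.12%, 0.989 to 1.26), with 1.6% of all iOL peaks having one. Brg1 of iOL lay at 1108 kept peaks (43.1%, 41.2 to 45.0) and 2992 lost peaks (12.9%, 12.5 to 13.3), where the whole iOL list had 15.9%. Brg1 of mOL lay at 940 kept peaks (36.6%, 34.7 to 38.5) and 2079 lost peaks (8.96%, 8.59 to 9.33), where the whole list had 11.7%.

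The kept share followed the number of stages, of iOL and mOL, at which Brg1 was called. It was 5.91% (5.59 to 6.24) for the 20586 iOL Olig2 peaks with Brg1 in neither iOL nor mOL. It was 19.0% (17.4 to 20.7) for the 2182 with Brg1 in iOL alone, 22.4% (20.0 to 25.02) for the 1101 with Brg1 in mOL alone and 36.1% (34.0 to 38.3) for the 1918 with Brg1 in both. The intervals of the 2 single-stage classes overlap. The classes differed in width, with medians of 694 bp without Brg1 and 930 bp with Brg1 in both, and were not split further by width or list order. For the 413 peaks with OPC Brg1, whatever the later stages, the kept share was 37.0% (32.4 to 41.9). Among peaks with both OPC Olig2 and Brg1 of iOL and mOL, 686 of 1771 were kept (38.7%, 36.5 to 41.0), and among the 9221 peaks with neither OPC Olig2 nor Brg1 of iOL or mOL, 101 (1.10%, 0.893 to 1.33). Where Olig2 was kept, Brg1 was more often kept too: of iOL Brg1-bound Olig2 peaks, 693 of 1108 kept ones (62.5%, 59.6 to 65.4) and 1225 of 2992 lost ones (40.9%, 39.2 to 42.7) had Brg1 in mOL. At peaks without iOL Brg1, an mOL Brg1 peak was called at 247 of 1463 kept peaks (16.9%, 15.0 to 18.9) and at 854 of 20224 lost peaks (4.22%, 3.95 to 4.51).

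Acetylation separated kept from lost peaks far less than Brg1 did. H3K27Ac of OPC lay at 23.8% (22.2 to 25.5) of kept and 22.1% (21.5 to 22.6) of lost peaks, with 22.2% over the whole list. H3K27Ac of iOL lay at 35.0% (33.1 to 36.8) of kept and 26.2% (25.7 to 26.8) of lost peaks, with 27.1% over the list, and H3K27Ac of mOL at 43.1% (41.2 to 45.0) and 32.9% (32.3 to 33.5), with 33.9% over the list. The differences for iOL and mOL were 8.72 and 10.2 percentage points. Kept peaks were also wider (median 864 bp against 706 bp), and the part of width in these differences was not tested. With the lost peaks reweighted to the widths of the kept ones they were -1.15 (-3.12 to 0.82) and 0.40 (-1.64 to 2.44) points. Reweighted to the places of the kept ones in the deposited list, they were -9.71 (-12.0 to -7.38) and -5.14 (-7.53 to -2.76) points.

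Taking Brg1 and H3K27Ac together showed which of them the kept share followed. Of iOL Olig2 peaks with H3K27Ac in iOL or mOL and no Brg1 in either, 316 of 6046 were kept (5.23%, 4.68 to 5.82), close to the 900 of 14540 peaks with neither feature (6.19%, 5.80 to 6.59). Of peaks with Brg1 and no H3K27Ac, 437 of 1432 were kept (30.5%, 28.1 to 33.0), and of peaks with both, 918 of 3769 (24.4%, 23.0 to 25.8). The order was that of Brg1, and within each Brg1 class the acetylated peaks were not the ones kept more often. These classes pool peaks of all widths and all places in the deposited list. In 5 of 10 bins of list order, peaks with H3K27Ac, whatever their Brg1, were kept more often than those without.

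Where iOL peaks were already acetylated in iOL, most stayed so in mOL whether or not Olig2 was called there. Among these, H3K27Ac was called again in mOL at 773 of 899 kept peaks (86.0%, 83.5 to 88.2) and at 5154 of 6093 lost peaks (84.6%, 83.7 to 85.5), and these intervals overlap. Of the peaks not acetylated in iOL, 335 of 1672 kept (20.0%, 18.1 to 22.0) and 2488 of 17123 lost peaks (14.5%, 14.0 to 15.1) had H3K27Ac in mOL, a higher share at kept peaks with intervals that do not overlap. The mOL H3K27Ac list is the longest of its target, with 35268 peaks against 21589 in iOL, which raises both values.

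The order of the peaks in the deposited iOL list split the kept share over a wider range than peak width did. The list is not sorted by position, and no source used here says what its order stands for. Earlier rows held wider peaks, with a Spearman correlation of -0.64 between row and width over the 25787 peaks. Of the first 1000 rows, 702 peaks were kept (70.2%, 67.3 to 73.0), and of the last 1000, 19 (1.90%, 1.15 to 2.95). Cut into 10 bins of equal size in that order, the share was 49.7% (47.8 to 51.7) in the first bin, 17.95% (16.5 to 19.5) in the second and 1.86% (1.38 to 2.46) in the last. By width it went from 4.23% (3.48 to 5.08) in the narrowest of 10 bins, of 221 to 468 bp, to 20.7% (19.1 to 22.3) in the widest, of 1129 to 3642 bp. The OPC Olig2 list, also not sorted by position, gave a like picture. Of the iOL peaks whose OPC partner stood in the first of 10 bins of that list, 1155 of 2248 were kept (51.4%, 49.3 to 53.5), and in its last bin 28 of 899 (3.11%, 2.08 to 4.47). The first 2759 iOL rows, as many as the mOL list holds, contained 1321 kept peaks (47.9%, 46.0 to 49.8).

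**Figure D2:**
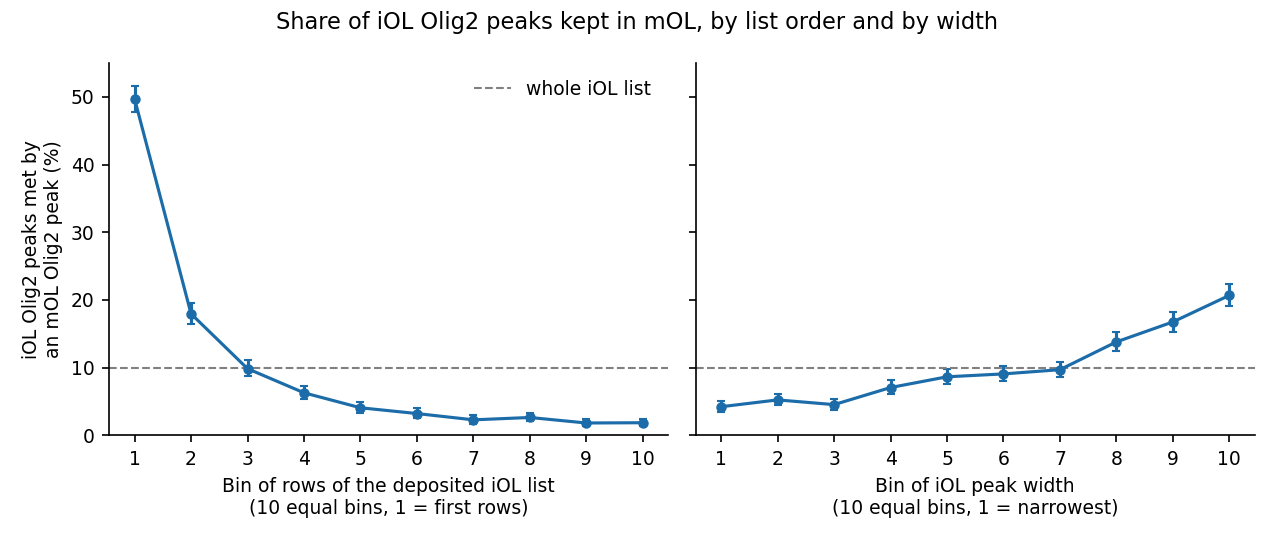
Share of iOL Olig2 peaks kept in mOL, in percent on the vertical axis, for 10 equal bins of the deposited iOL list in its own order (left) and for 10 equal bins of peak width (right), with exact 95% intervals. The dashed line is the 9.97% of the whole list, and the share falls from 49.7% in the first row bin to 1.86% in the last, a wider span than the 4.23% to 20.7% over the width bins.

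The features were therefore read again within bins of the list. Peaks with Brg1 of iOL or mOL were kept more often than peaks without it in 10 of 10 bins, and so were peaks with OPC Olig2. In the first bin 68.0% of the 1061 peaks with Brg1 and 36.9% of the 1518 without it were kept, and in the last bin 8.33% of 276 and 1.09% of 2302. For OPC Olig2, 50.4% of 2542 peaks with it and 1 of 37 without it were kept in the first bin. Peaks with H3K27Ac of iOL or mOL were kept more often than those without it in 5 bins and less often in the other 5. The first bin gave 45.9% with and 54.9% without, and the last bin 4.55% with and 1.28% without. Within the first bin the share was 84.6% (79.6 to 88.7) for the 259 peaks with Brg1 and no H3K27Ac, 62.7% (59.3 to 66.1) for the 802 with both, 45.6% (42.2 to 49.1) for the 833 with neither and 26.3% (23.0 to 29.7) for the 685 with H3K27Ac alone.

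**Figure D3:**
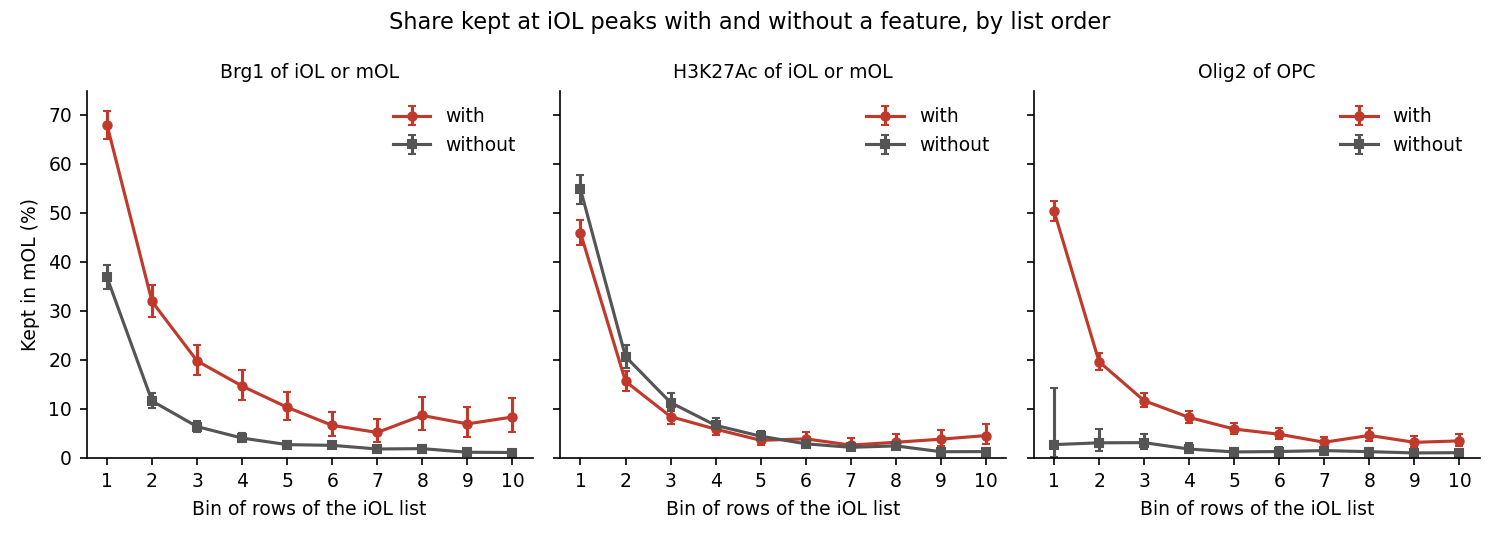
Share kept in mOL, in percent on the vertical axis, by bin of the deposited iOL list, for peaks with (red circles) and without (grey squares) Brg1 of iOL or mOL, H3K27Ac of iOL or mOL, and OPC Olig2, with exact 95% intervals. The Brg1 and OPC Olig2 lines stay apart in 10 of 10 bins, and the H3K27Ac lines cross, at 45.9% with and 54.9% without in the first bin and 4.55% and 1.28% in the last.

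The 298 peaks of the first 1000 rows that were lost anyway show what set such peaks apart from the 702 kept ones. OPC Olig2 lay at nearly all of both, 296 lost (99.3%, 97.6 to 99.9) and 701 kept (99.9%, 99.2 to 99.996) peaks, and the lost ones were not narrower, with a median of 1179 bp against 1083 bp. The lost ones held less Brg1: Brg1 of iOL lay at 61 of them (20.5%, 16.0 to 25.5) and at 351 of the 702 kept ones. They held more acetylation, with H3K27Ac of iOL at 178 lost (59.7%, 53.9 to 65.3) and 324 kept peaks (46.2%, 42.4 to 49.9). H3K4me3 of mOL lay at 29 lost (9.73%, 6.61 to 13.7) and 19 kept peaks (2.71%, 1.64 to 4.19), beside 5.65% over the whole iOL list.

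Kept peaks lay farther from H3K4me3 than lost ones. An iOL H3K4me3 peak overlapped 12 kept peaks (0.467%, 0.241 to 0.814) and 712 lost peaks (3.07%, 2.85 to 3.30), with 2.81% over the whole list, and lay within 10 kb of 201 kept (7.82%, 6.81 to 8.92) and 2912 lost peaks (12.5%, 12.1 to 13.0), with 12.1% over the list. For OPC H3K4me3 within 10 kb the shares were 8.17% and 13.2%, with 12.7% over the list, and for mOL H3K4me3 12.1% and 18.3%, with 17.7% over the list. The median distance to iOL H3K4me3 was 129295 bp for kept and 86395 bp for lost peaks, and to mOL H3K4me3 80828 bp and 54925 bp. The kept share rose with distance from iOL H3K4me3: 1.66% (0.859 to 2.88) of the 724 peaks overlapping it, 8.18% (7.04 to 9.44) of the 2078 peaks at 1 to 10 kb, and 11.9% (11.3 to 12.5) of the 12218 peaks over 100 kb away or with none on the sequence. Peaks with iOL H3K4me3 within 10 kb had the lower kept share in 10 of 10 row bins and in each of 4 equal width bins. The later row bins rest on few such kept peaks, with 5 of 342 in the fifth and 1 of 258 in the last. In the last bin the intervals with (0.0098 to 2.14) and without (1.49 to 2.68) overlap. Most peaks that overlapped H3K4me3 were also acetylated, kept or lost. Of the 1397 lost peaks with H3K4me3 of iOL or mOL, 75.7% had H3K27Ac of iOL, and of the 64 kept ones 81.2% did. Brg1 of iOL lay at 64.1% of those 64 kept peaks and at 17.3% of the lost ones.

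Kept peaks were somewhat less clustered than lost ones. Another iOL Olig2 peak lay within 10 kb of 767 kept peaks (29.8%, 28.1 to 31.6) and 8112 lost peaks (34.9%, 34.3 to 35.6), with 34.4% over the whole list, a difference of -5.11 percentage points (-6.98 to -3.24). The median gap to the nearest other iOL peak was 22704 bp for kept and 18169 bp for lost peaks. The kept share was 10.7% (10.2 to 11.1) for the 16908 isolated peaks, 9.10% (8.42 to 9.83) with 1 neighbour and 7.14% (6.01 to 8.42) with 2. It was 8.35% (5.82 to 11.5) with 3, and the interval with 4 or more neighbours (2.40 to 13.5) takes in all of these. In 9 of 10 row bins peaks with a neighbour were kept less often than peaks without, the exception being the ninth (1.89% against 1.79%). The difference of -5.11 points was -2.95 with neighbours within 5 kb, -2.42 with peaks within 1000 bp counted as kept, -7.97 with lost peaks reweighted by width and -9.70 reweighted by row.

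**Figure D4:**
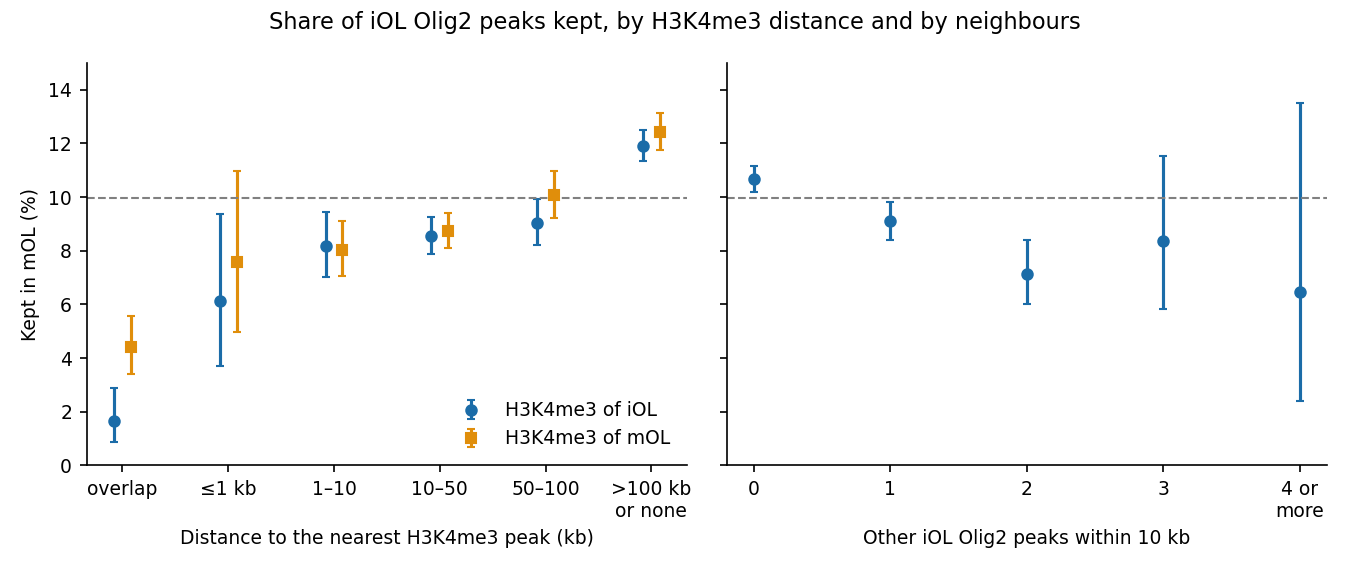
Share of iOL Olig2 peaks kept in mOL, in percent on the vertical axis, by distance to the nearest H3K4me3 peak of iOL (blue circles) or mOL (orange squares) on the left and by the number of other iOL Olig2 peaks within 10 kb on the right, with exact 95% intervals and the whole-list share of 9.97% dashed. The share is 1.66% at peaks overlapping iOL H3K4me3 and 11.9% beyond 100 kb, and it is 10.7% for peaks without a neighbour and 7.14% for those with 2.

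Joining iOL peaks across gaps of up to 10 kb gave 20679 groups, of which 16908 were single peaks and 3771 were chains of 2 to 10 peaks. Some peak was kept in 17.4% (16.1 to 18.9) of the 2849 chains of 2 and in 36.6% (26.8 to 47.2) of the 93 chains of 5 or more. In 58 chains 2 or more peaks were kept. Neighbouring kept peaks can share 1 mOL peak, since 13 mOL peaks met 2 or more iOL peaks. Per peak, the kept share was 10.7% for single peaks and 9.25% in chains of 2. It was 7.58%, 6.57% and 8.55% in chains of 3, 4 and 5 or more. A longer chain has more peaks that can be kept, and the number of chains expected to hold 2 kept peaks was not computed. The counts of chains alone thus cannot show whether chained peaks differ from single ones. In the 467 chains of 2 with exactly 1 kept peak, the kept one was the wider in 331 (70.9%, 66.5 to 74.96). OPC Olig2 lay at the kept peak alone in 192 of these chains and at the lost peak alone in 16. Brg1 of iOL lay at the kept peak alone in 159 and at the lost peak alone in 24, and Brg1 of mOL in 158 and 24. H3K27Ac of iOL was found at the kept peak alone in 124 and at the lost peak alone in 53.

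No chain had more than 3 kept peaks, and 2 chains had 3. Among the chains with 2 kept, those with the larger share of their peaks kept were taken first, and ties went to the order of chromosome and start, so the 3 named here are examples. OPC Olig2 was called at every kept peak of these 5 chains, beside 94.6% of all kept peaks. The chain at chr3:62801604-62810610 had 4 iOL peaks, of which the 3 kept ones carried OPC Olig2 and iOL Brg1 and the lost one neither. Only 2 mOL peaks covered those 3, and the nearest iOL H3K4me3 was 333578 bp away. The chain at chr8:76343125-76365594 had 5 iOL peaks and 3 kept. OPC Olig2 lay at the 3 kept peaks and at neither lost one, and the 2 kept peaks at its right end also held Brg1 of iOL and mOL and H3K27Ac of all stages. Those 2 peaks met the same mOL peak, chr8:76363848-76365636. The chains at chr1:34596495-34601167, chr1:139008044-139009773 and chr1:185935676-185938669 had 2 peaks each, and both were kept.

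The 3 longest chains with no kept peak held H3K27Ac peaks and few or no Brg1 peaks. Among all lost peaks with a neighbour within 10 kb, 14.6% met Brg1 of iOL and 42.6% met H3K27Ac of mOL. The counts that follow are of peaks anywhere in the span of a chain. Long chains with a kept peak were not compared with these. The chain at chr7:137718070-137773154 held 10 iOL peaks over 55.1 kb, with 8 iOL and 11 mOL H3K27Ac peaks, 8 mOL H3K4me3 peaks, 5 iOL RNAPII peaks and no Brg1 peak of any stage. The chain at chr1:156595032-156645107 held 9 iOL peaks over 50.1 kb, with 5 H3K27Ac peaks in each of iOL and mOL and no Brg1. The chain at chr12:32736563-32784817 held 9 iOL peaks over 48.3 kb and 1 Brg1 peak in each of OPC and iOL, with 6 H3K27Ac peaks in iOL and 2 in mOL. In the chr7 chain 1 lost peak of 1442 bp stood at row 812 of the deposited list, among the first 1000, and met H3K27Ac and H3K4me3 of every stage and no OPC Olig2.

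Single wide peaks showed both outcomes. The widest mOL peak with an iOL partner was the 2611 bp peak at chr11:31276814-31279424, which met 1 Brg1 peak in iOL and in mOL, H3K27Ac at all stages and H3K4me3 in mOL alone. The next were chr8:76363848-76365636, at the right end of the chr8 chain described above, and chr11:16005331-16007013. Each met 2 Brg1 peaks in iOL and 2 in mOL. The widest lost iOL peak, of 3642 bp at chr15:33156625-33160266, overlapped H3K4me3 and H3K27Ac of every stage and no OPC Olig2 or Brg1 peak. The next widest lost peak, chr3:156958729-156961916, met OPC Olig2 and H3K27Ac of every stage and no Brg1. The third, chr5:70881833-70884555, met OPC Olig2, Brg1 of iOL and mOL and H3K27Ac of every stage, and is a case where those features were present and no mOL Olig2 peak was called.

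A total of 14415 iOL peaks (55.9%) had neither H3K27Ac, H3K4me3 nor Brg1 of iOL or mOL, and these were 35.0% (33.1 to 36.8) of kept and 58.2% (57.6 to 58.9) of lost peaks. Few iOL Olig2 peaks met H3K9me3 of mOL or RNAPII. The RNAPII lists held only 332 peaks in OPC and 1425 in iOL, and the mOL H3K9me3 list 7103, beside 25787 iOL Olig2 peaks. RNAPII of iOL was met by 223 iOL Olig2 peaks, fewer than the 1425 peaks of that list. The part of list length in the low RNAPII shares was not tested. H3K9me3 of mOL lay at 15 kept peaks (0.583%, 0.327 to 0.961) and 72 lost peaks (0.310%, 0.243 to 0.390), with 0.337% over the whole list, and the intervals overlap. RNAPII of iOL lay at 22 kept (0.856%, 0.537 to 1.29) and 201 lost peaks (0.866%, 0.751 to 0.994), with 0.865% over the list. RNAPII of OPC lay at none of the 2571 kept peaks, which allows a share of up to 0.117% if the limit is set at 3 counts of the total (0.143% as the exact upper bound), and at 25 lost ones, which is 0.0969% of the list.

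Kept peaks were spread over every placed chromosome. The share ran from 6.46% (4.78 to 8.49) of 728 iOL peaks on chromosome 19 to 13.2% (11.1 to 15.6) of 914 on chromosome 18, with a median of 9.81% over the 21 chromosomes. The interval held the whole-list share on 17 of them. It lay above on chromosomes 2 (12.5%, 11.1 to 14.0) and 18, and below on chromosomes 10 (7.89%, 6.54 to 9.41) and 19. Chromosomes with more mOL Brg1 at their iOL Olig2 peaks had higher kept shares, with a Spearman correlation of 0.79 over 21 chromosomes, and those with more OPC Olig2 too, at 0.71, whereas mOL H3K27Ac gave -0.31. These values describe chromosomes of the same libraries. None of the 86 iOL peaks on unplaced sequence was kept, which allows a share of up to 3.49% with the limit at 3 counts of the total (4.20% as the exact upper bound).

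**Figure D5:**
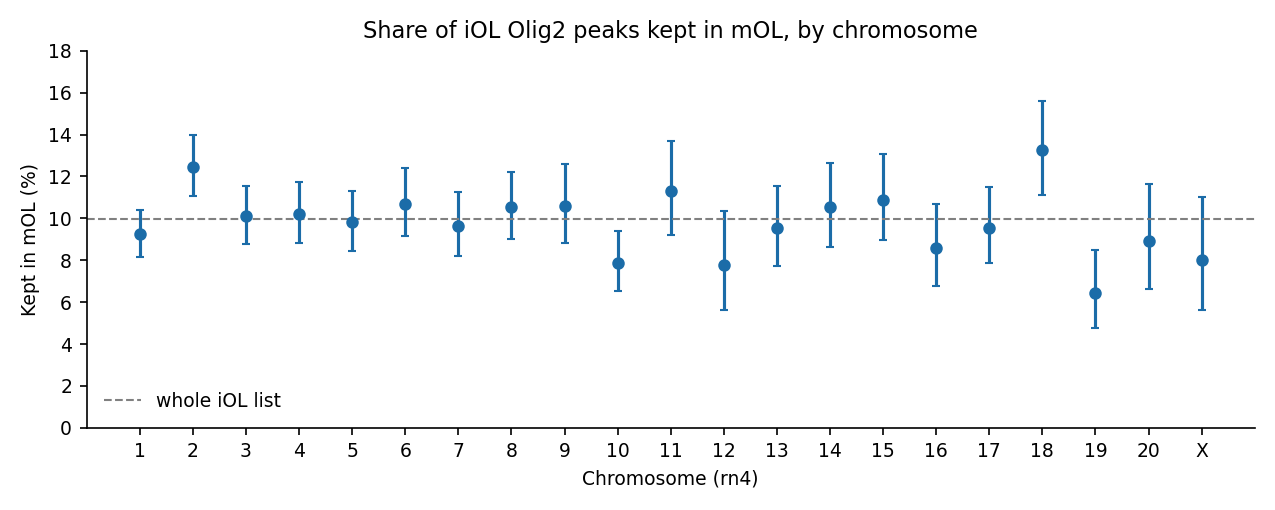
Share of iOL Olig2 peaks kept in mOL, in percent on the vertical axis, on each of the 21 placed chromosomes of rn4, with exact 95% intervals and the whole-list share of 9.97% dashed. Chromosomes 2 and 18 lie above the line with their whole interval (12.5% and 13.2%) and chromosomes 10 and 19 below it (7.89% and 6.46%).

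The 200 mOL peaks without an iOL peak were poorer than the 2559 shared ones in OPC Olig2, Brg1 and acetylation, and richer in H3K9me3 and in close mOL neighbours. They met Brg1 of mOL in 10 cases (5.00%, 2.42 to 9.00) against 36.4% (34.5 to 38.3) of shared peaks, and H3K27Ac of mOL in 23 cases (11.5%, 7.43 to 16.8) against 43.0% (41.1 to 44.9). OPC Olig2 lay at 39 of them (19.5%, 14.2 to 25.7) against 94.5% (93.6 to 95.4). H3K9me3 of any stage lay at 37 of the 200 (18.5%, 13.4 to 24.6) and at 17 of the shared peaks (0.664%, 0.388 to 1.06). Another mOL Olig2 peak lay within 10 kb of 44 of them (22.0%, 16.5 to 28.4) and of 79 shared peaks (3.09%, 2.45 to 3.83). Chromosome X held 16 of the 200, which is 32.0% of its 50 mOL peaks, where the autosomes had between 1.92% and 10.9%. They were not narrower, with a median of 756 bp against 765 bp, and 127 lay over 50 kb from the nearest iOL peak. The widest, of 3850 bp at chrX:128955180-128959029, met H3K9me3 of OPC and mOL and no other list. The next, chr14:21896495-21899240 and chr9:802285-804945, met no other list.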

How the data were processed

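ChIP-seq peak lists of 17 libraries, 1 for each target and stage, were used as the authors deposited them. Each file held chromosome, start and end without score, header or read number. The submitters' processing notes name MACS 1.4.0 and build rn4. No source used here gives the aligner, threshold, control library or pooling. The order of rows was kept, and its meaning is not stated. Without a score, threshold or depth, peak strength and sensitivity could not be compared between libraries. Stages were taken from sample titles, and starts were made 1-based.

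Overlap of at least 1 bp, edge-to-edge distances, neighbours within 10 kb and chains across gaps of up to 10 kb were computed with Python 3.11.15, numpy 2.4.6, pandas 2.3.3 and scipy 1.17.1. Differences of shares carry normal 95% intervals. The functions were tested on simulated lists and against bedtools. Reweighting gave the lost peaks the distribution over 10 bins of width or row of the kept ones. Regions were named by rule: the 5 chains with most kept peaks, the 3 with most peaks and none kept, and the 3 widest shared mOL, mOL-only and lost iOL peaks. Members, lists and rules were chosen with earlier results of these data known. The uses of row order were added after the files had been seen.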

Additional observations from a re-analysis of the deposited data

How the results depend on the processing

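Of 87 values under other settings, 48 stayed inside the interval of the reported one, 34 moved outside it and 5 changed sign, all of these 5 for H3K27Ac. Of those 5, the intervals held both signs for iOL reweighted by width (-3.12 to 0.82). They also did in the first 50% of rows for iOL (-3.14 to 1.26) and mOL (-2.73 to 1.77). Only the values reweighted by row had intervals that were negative throughout. The differences below are percentage points, kept minus lost. With factor peaks reduced to their middle 200 bp, 9.11% of iOL peaks were kept and 85.1% of mOL peaks were shared, and the differences were 6.04 for iOL and 7.66 for mOL H3K27Ac, and 24.7 for iOL and 22.8 for mOL Brg1. With the wider 50% of the iOL list, 14.0% were kept, and the differences were 4.00 and 3.35 for H3K27Ac and 30.6 for OPC Olig2. With lost peaks reweighted by width, they were -7.97 for neighbours, -6.16 for H3K4me3, -1.15 and 0.40 for iOL and mOL H3K27Ac, 26.3 and 24.9 for Brg1 and 30.9 for OPC Olig2. With each chain counted once, a chain was kept, or had a feature, if any of its peaks did, which favours both in longer chains. The differences were then 12.2 and 13.2 for H3K27Ac and 33.9 for OPC Olig2. Counting peaks within 1000 bp as meeting gave -2.42 for neighbours and 35.5 for OPC Olig2. Neighbours within 5 kb gave -2.95, H3K4me3 within 1 kb -3.12 and within 50 kb -8.53, and H3K27Ac lists of equal length 7.45 for mOL. In the first 50% of rows, a setting added after seeing the data, 17.6% were kept, and the differences were -7.34 for neighbours, -0.94 and -0.48 for H3K27Ac, 25.6 for mOL Brg1 and 21.9 for OPC Olig2. Reweighting by row, also added, gave -9.70 for neighbours, -6.08 for H3K4me3, -9.71 and -5.14 for H3K27Ac, 23.9 and 23.8 for Brg1 and 10.6 for OPC Olig2. Why these values moved was not tested. The depth of the libraries is unknown, and 1 library per stage leaves every difference without a replicate check. No paired analysis was possible because each group has 1 sample.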

Other observations

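Among the 140 kept peaks without OPC Olig2, Brg1 of iOL lay at 7.14% and Brg1 of mOL at 25.7%, while the 9822 lost peaks without OPC Olig2 had 3.78% and 4.80%. H3K27Ac of mOL lay at 45.0% of these 140 peaks and at 27.8% of the 9822, whereas H3K27Ac of iOL lay at 19.3% and 23.0%. The intervals of the differences span 0 for iOL Brg1 (-0.92 to 7.65 percentage points) and iOL H3K27Ac (-10.3 to 2.91), and lie above it for mOL Brg1 (13.7 to 28.2) and mOL H3K27Ac (8.89 to 25.5).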
